A study of Mus musculus with 10 samples.

Results

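The chemokine genes Cxcl1, Cxcl9, Cxcl10, Cxcl12, Cxcl14, Cxcl16, Ccl2, Ccl7, Ccl9 and Ccl12 are described here in 10 heart libraries of mice. They are 10 of the 55858 genes in the deposited table, found there by gene name, and each name matched 1 row. The list was chosen on measured values, the levels of these genes in the 2 groups compared here, so their differences are given as a description with no test. Every animal carried MCM, for which the sources used here give no promoter or driver cell type, and Chmp4bF/F, a conditional allele of the gene for a subunit of the membrane-cutting ESCRT-III complex. The 5 cKO animals were injected subcutaneously with tamoxifen, 0.1 mg/g, on postnatal day 0 and the day after, and the 5 control animals were given corn oil. Hearts were taken at postnatal day 10. No group had tamoxifen without the floxed allele, so loss of Chmp4b, tamoxifen itself and recombinase activity cannot be told apart. Chmp4b was at 38.2 ± 1.42 TPM in cKO and 47.4 ± 8.61 TPM in control hearts (SD, n = 5), with overlap. After the scaling described below the gene stood at 29.5 ± 1.38 and 60.8 ± 6.51, a ratio of 0.485 with no overlap.

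Chemokines are small secreted proteins that draw leukocytes along a gradient through receptors coupled to G proteins, and they are named CXC or CC by the spacing of their first cysteines. Inflammatory chemokines are made on demand, through NF-kB downstream of cytokine and Toll-like receptors or through IRF factors downstream of interferons. Homeostatic chemokines such as Cxcl12 are made all the time and guide stem cells, vessels and resident cells. In the injured heart the CCR2 ligands are known for bringing in monocytes.

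TPM divides read counts by gene length and sets every library to a total of 1000000, so levels can be compared between genes but the depth behind them is unknown. Differences are given on 2 scales, both on log2(TPM + 1), which understates the change of genes with low values. On the scale as deposited, the median of all 13282 tested genes was 0.63 higher in cKO hearts. On the second scale, TPM was divided by a size factor per library, which sets differences against the median gene (median 0.01), and such values are called scaled. The size factors were 1.20 to 1.38 in cKO and 0.697 to 0.843 in control libraries. The share of TPM from mitochondrially encoded genes was 35.5% to 41.5% with tamoxifen and 50.0% to 59.4% with corn oil. Xist was at 47.6 to 65.9 TPM in cKO replicates 1, 5 and 7 and at 0.120 TPM at most in the other libraries. The Y-linked gene Ddx3y was at 16.7 to 32.9 TPM in cKO replicates 3 and 6 and in all 5 control libraries, so sex was unequal between the groups. The heart markers Myh6, Tnnt2, Actc1, Tnni3, Ryr2, Pln, Nkx2-5 and Myl2 summed to 31230 to 34570 TPM in cKO and 31020 to 38220 TPM in control libraries. These are sums as deposited. In the tests given further below, 7 of these 8 genes were lower in cKO hearts after scaling. As deposited, 3 were lower and 1 higher.

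The windows upstream of 4 of the genes are shown because they differ in the letter matches that inducible chemokine promoters are known for. RefSeq's promoter table for GRCm38.p6 held 7 of the 10 genes, all except Cxcl16, Ccl2 and Ccl7. Each window is the 250 bases before the RefSeq start, written 5′ to 3′ in the direction of transcription. Capitals mark matches on either strand to the NF-kB consensus, to the interferon-stimulated response element (ISRE, searched as GAAANNGAAA) or to AP-1 (searched as TGANTCA). The windows lie at chr5:92348890-92349139 on the minus strand for Cxcl10, chr5:90890995-90891244 on the plus strand for Cxcl1, chr11:82101595-82101844 on the plus strand for Ccl12 and chr6:117168285-117168534 on the plus strand for Cxcl12.
Cxcl10: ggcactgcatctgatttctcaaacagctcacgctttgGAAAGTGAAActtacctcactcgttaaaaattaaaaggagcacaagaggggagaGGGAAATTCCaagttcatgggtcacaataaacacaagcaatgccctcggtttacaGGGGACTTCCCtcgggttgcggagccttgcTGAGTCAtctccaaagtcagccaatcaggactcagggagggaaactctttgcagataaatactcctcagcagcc
Cxcl1: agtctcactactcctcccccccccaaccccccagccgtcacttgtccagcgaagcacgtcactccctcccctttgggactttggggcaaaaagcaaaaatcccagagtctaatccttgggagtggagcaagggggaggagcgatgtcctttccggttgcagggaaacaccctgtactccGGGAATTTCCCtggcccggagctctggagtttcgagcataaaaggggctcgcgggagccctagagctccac
Ccl12: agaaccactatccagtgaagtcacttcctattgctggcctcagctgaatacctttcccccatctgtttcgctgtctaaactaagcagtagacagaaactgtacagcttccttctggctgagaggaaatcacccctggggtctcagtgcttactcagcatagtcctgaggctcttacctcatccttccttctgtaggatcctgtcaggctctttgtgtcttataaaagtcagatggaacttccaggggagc
Cxcl12: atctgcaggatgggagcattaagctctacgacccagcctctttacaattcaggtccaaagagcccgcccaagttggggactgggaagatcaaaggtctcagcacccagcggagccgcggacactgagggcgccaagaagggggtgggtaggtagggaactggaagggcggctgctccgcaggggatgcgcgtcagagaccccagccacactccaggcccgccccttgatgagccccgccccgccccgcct
The Cxcl10 window held an ISRE match from 213 to 204 bases before the start, NF-kB matches from 159 to 150 and from 104 to 94 bases before it, the latter made of 2 overlapping matches, and an AP-1 match from 74 to 68. Cxcl1 held overlapping NF-kB matches from 71 to 61 bases before its start. Ccl12, Cxcl12 and Cxcl9 held none of the 3 in this window. Of the genes not shown, Ccl9 held an NF-kB match from 35 to 26 and an AP-1 match from 53 to 47 bases before its start, and Cxcl14 an ISRE match from 172 to 163. Of 32851 windows of this length in the table, 2.98% held an ISRE match, 7.25% an NF-kB match and 6.75% an AP-1 match. These are letter matches only.

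Cxcl10, an interferon-induced ligand of the receptor CXCR3 that draws activated T and NK cells, had the largest difference of the 10 genes. Its level was 25.8, 29.1, 24.4, 12.4 and 19.7 TPM in cKO replicates 1, 3, 5, 6 and 7. In control replicates 4, 6, 8, 9 and 13 it was 0.332, 0.273, 0.573, 0.288 and 0.381 TPM. Every cKO library stood far above every control library, although the cKO libraries themselves differed by over 2-fold. The means were 22.3 ± 6.49 and 0.369 ± 0.121 TPM (SD, n = 5), a ratio of 60.3 as deposited and 35.8 after scaling. The log2 difference was 4.04 ± 0.21 (SE) as deposited and 3.58 ± 0.19 after scaling, and with a pseudocount of 0.1 it was 4.88 after scaling. The highest and the lowest cKO library, replicates 3 and 6, were the 2 with Ddx3y, and within the 7 libraries with Ddx3y the scaled difference was 3.36, an alternative chosen after seeing the data. Cxcl10 (ENSMUSG00000034855.14, protein-coding) lies on the minus strand of chromosome 5 from 92346638 to 92348889 in GRCm38, inside the span of Art3 on the other strand. Art3 was at 232 to 314 TPM in cKO and 142 to 176 TPM in control libraries, and 133 of the 2252 exon bases of Cxcl10 are also exon bases of Art3. No source used here gives the strand setting of the counting, and whether Art3 reads were counted for Cxcl10 was not tested.

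**Figure D1:**
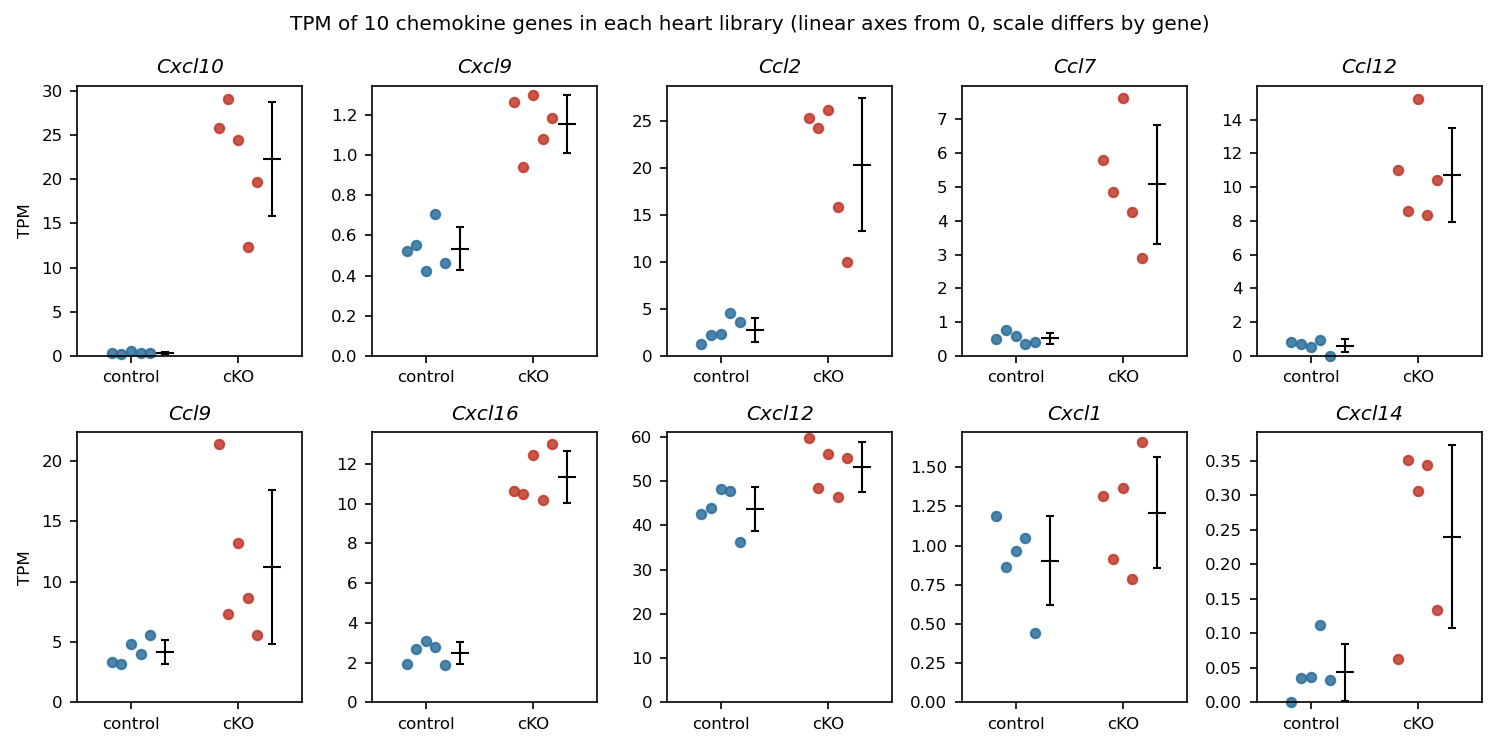
TPM of each of the 10 chemokine genes (y axis, linear from 0, with its own scale in each panel) in 5 control and 5 cKO hearts. Points are libraries, and the bar beside them is the mean with SD. Cxcl10 sits at 12.4 to 29.1 TPM in cKO and below 0.574 TPM in control libraries, while Cxcl1 and Cxcl12 overlap between the groups.

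Cxcl9, the neighbouring CXCR3 ligand, known as a target of interferon gamma, was low in both groups. Its level was 1.27, 0.942, 1.30, 1.08 and 1.18 TPM in cKO replicates 1, 3, 5, 6 and 7, and 0.524, 0.553, 0.425, 0.708 and 0.463 TPM in control replicates 4, 6, 8, 9 and 13. The groups did not overlap as deposited, but they did after scaling, where the log2 difference was 0.16 ± 0.07 (SE) against 0.49 as deposited. Cxcl9 ends at 92328079 on chromosome 5, 18.6 kb from Cxcl10. The third CXCR3 ligand of this locus, Cxcl11, annotated as a polymorphic pseudogene and chosen here for its position after its values were seen, was at 0.0600 TPM or less in every library. Of the 3 genes side by side, Cxcl10 alone was above 2 TPM in any library.

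Ccl2, Ccl7 and Ccl12 encode ligands of CCR2, the receptor of inflammatory monocytes, and all 3 were higher in every cKO library than in any control library. Ccl2, the main monocyte chemoattractant of the group, was at 25.3, 24.3, 26.1, 15.8 and 10.02 TPM in cKO replicates 1, 3, 5, 6 and 7. It was at 1.26, 2.25, 2.32, 4.57 and 3.57 TPM in control replicates 4, 6, 8, 9 and 13. Replicates 1, 3 and 5 lay close together near 25 TPM and replicates 6 and 7 lower. The means were 20.3 ± 7.07 and 2.79 ± 1.29 TPM (SD, n = 5), a log2 difference of 2.48 as deposited and 1.86 ± 0.33 (SE) after scaling.

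Ccl7, which also binds CCR1 and CCR3, was at 5.78, 4.86, 7.62, 4.24 and 2.89 TPM in the cKO libraries in the same order. The control libraries held 0.508, 0.771, 0.584, 0.342 and 0.405 TPM. Its log2 difference was 1.96 as deposited and 1.52 ± 0.18 (SE) after scaling. Ccl12, a mouse monocyte chemoattractant, was at 11.0, 8.58, 15.2, 8.35 and 10.4 TPM in cKO libraries and at 0.846, 0.735, 0.533, 0.957 and 0 TPM in control libraries. It had the second-largest difference of the 10 genes, 2.87 as deposited and 2.41 ± 0.24 (SE) after scaling, with control replicate 13 listed at 0. In cKO hearts Ccl12 stood above Ccl7 in 5 of 5 libraries, without overlap of their ranges, and both stood below Ccl2 on average.

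These 3 genes lie together on the plus strand of chromosome 11 in GRCm38, Ccl2 from 82035571 to 82037453, Ccl7 from 82045712 to 82047525 and Ccl12 from 82101845 to 82103400. Ccl11, the eosinophil attractant eotaxin, lies between Ccl7 and Ccl12, and Ccl8 lies beyond Ccl12. Both were chosen for their position, with their values already known. Ccl11 was at 0.0990 to 1.11 TPM in cKO and 0 to 0.364 TPM in control libraries, with overlap. Ccl8 was at 1.96 TPM in cKO replicate 5, at 0.361 TPM in cKO replicate 1 and at 0 in the other 8 libraries. Ccl1, beyond Ccl8 and named for its position in the same way, was at 0.712 TPM at most in cKO and 0 in control libraries.

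Ccl9, a ligand of CCR1 made by myeloid cells, lies 1469.5 kb further along chromosome 11, from 83572919 to 83578636 on the minus strand. Its level was 21.4, 7.34, 13.2, 8.68 and 5.54 TPM in cKO replicates 1, 3, 5, 6 and 7 and 3.33, 3.16, 4.81, 4.01 and 5.60 TPM in control replicates 4, 6, 8, 9 and 13. As deposited the groups touched, since cKO replicate 7 lay just under control replicate 13. After scaling they overlapped more widely, with 4.424 to 15.54 in cKO and 3.755 to 8.028 in control libraries. The log2 difference was 1.12 as deposited and 0.48 ± 0.32 (SE) after scaling, and without cKO replicate 1, the highest library, the scaled value was 0.26. Cxcl1, a ligand of the neutrophil receptor CXCR2, was at 0.786 to 1.66 TPM (median 1.31) in cKO and 0.444 to 1.19 TPM (median 0.966) in control libraries, with overlap. Its log2 difference changed sign with the scale, 0.21 as deposited and -0.16 ± 0.15 (SE) after scaling. The scaled value was -0.08 without control replicate 4, -0.10 without cKO replicate 6 and -0.26 without control replicate 13.

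Cxcl16 is made as a membrane protein that is both a scavenger receptor for oxidized lipoprotein and, once shed, a ligand of CXCR6. It was at 10.6, 10.5, 12.4, 10.2 and 13.02 TPM in cKO replicates 1, 3, 5, 6 and 7 and at 1.92, 2.69, 3.10, 2.79 and 1.87 TPM in control replicates 4, 6, 8, 9 and 13. The groups were far apart and each was tight, with 11.4 ± 1.29 and 2.47 ± 0.549 TPM (SD, n = 5). The log2 difference was 1.84 as deposited and 1.23 ± 0.10 (SE) after scaling. Cxcl16 lies on the minus strand of chromosome 11 from 70453983 to 70459984 and shares 552 of its 3021 exon bases with Zmynd15 on the other strand. Zmynd15 was at 3.46 to 10.03 TPM in cKO and 0.686 to 1.62 TPM in control libraries, so it moved the same way, and its part in the Cxcl16 values was not tested.

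Cxcl12, the homeostatic ligand of CXCR4, was the most abundant of the 10 genes in every library. It was at 59.8, 48.4, 56.0, 46.3 and 55.1 TPM in cKO replicates 1, 3, 5, 6 and 7, and at 42.5, 43.9, 48.2, 47.8 and 36.1 TPM in control replicates 4, 6, 8, 9 and 13. As deposited the groups overlapped, with a log2 difference of 0.28. After scaling the difference was -0.45 ± 0.07 (SE), with 36.9 to 44.0 in cKO and 51.8 to 60.8 in control libraries, so the direction depends on the scale. Cxcl14, a homeostatic chemokine of epithelia and stroma, was close to 0, at 0.0628 to 0.351 TPM (median 0.306) in cKO and 0 to 0.112 TPM (median 0.0350) in control libraries.

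In all, 6 of the 10 genes had no overlap between groups with higher cKO values as deposited, where 62.5% of all tested genes did. After scaling 5 did, where 15.8% of all tested genes did, and Cxcl12 had no overlap in the other direction. The mean difference was above 0 for 10 genes as deposited and for 8 after scaling. Since these values chose the genes, nothing is read from the counts. Only 8 of the 10 reached 1 TPM in 5 or more libraries, the filter for the fit across all genes, and Cxcl10, Ccl7 and Ccl12 passed it through the cKO libraries alone, while Cxcl9 and Cxcl14 did not pass.

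**Figure D2:**
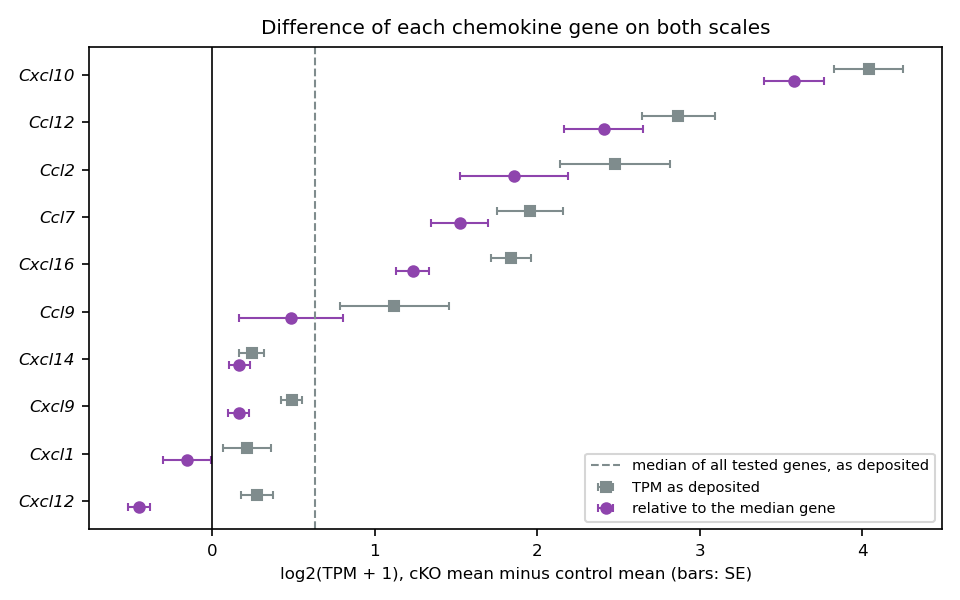
Difference of each chemokine gene between the cKO and control means on the log2(TPM + 1) scale (x axis, bars are SE over 5 against 5 libraries), as deposited (grey squares) and after scaling (purple circles). The dashed line is the median of all tested genes as deposited, 0.63. Cxcl10, Ccl12, Ccl2, Ccl7, Cxcl16 and Ccl9 lie above it as deposited. After scaling they lie above the median of all tested genes on that scale, 0.01, as do Cxcl9 and Cxcl14. Cxcl12 and Cxcl1 lie on opposite sides of 0 on the 2 scales.

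The order of the levels also differed between the groups. In control hearts Cxcl12, at 43.7 TPM on average, stood apart above Ccl9, Ccl2 and Cxcl16, which overlapped their neighbours at 4.18, 2.79 and 2.47 TPM. Cxcl1, Ccl12, Cxcl9, Ccl7 and Cxcl10 followed at 0.903 to 0.369 TPM, each overlapping the next. Cxcl14, at 0.0433 TPM, was apart from its neighbour Cxcl10 but overlapped Ccl12, which was listed at 0 in control replicate 13. In cKO hearts Cxcl12 was again apart at the top with 53.1 TPM, but Cxcl10 was next at 22.3 TPM. Cxcl10, Ccl2, Cxcl16, Ccl9 and Ccl12 overlapped their neighbours between 22.3 and 10.7 TPM, and Ccl7 at 5.08 TPM was apart from its neighbour Ccl12 but overlapped Ccl9. Cxcl1 and Cxcl9, which overlapped, and Cxcl14 followed. Thus Cxcl10 was ninth of 10 in control and second in cKO hearts.

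The make-up of the summed level shifted in the same way. The 10 genes summed to 108 to 162 TPM in cKO and 48.9 to 62.6 TPM in control libraries. Cxcl12 made up 35.5% to 46.0% of that sum in cKO and 73.9% to 81.1% in control libraries. Cxcl10 made up 11.4% to 21.5% and 0.460% to 0.931%. Without Cxcl12 the sum was 61.9 to 103 TPM in cKO and 9.91 to 14.8 TPM in control libraries. Among cKO libraries, replicate 6 had the lowest value for 5 of the 10 genes and the highest for 0, and replicate 5 had the highest for 4 and the lowest for 0.

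**Figure D3:**
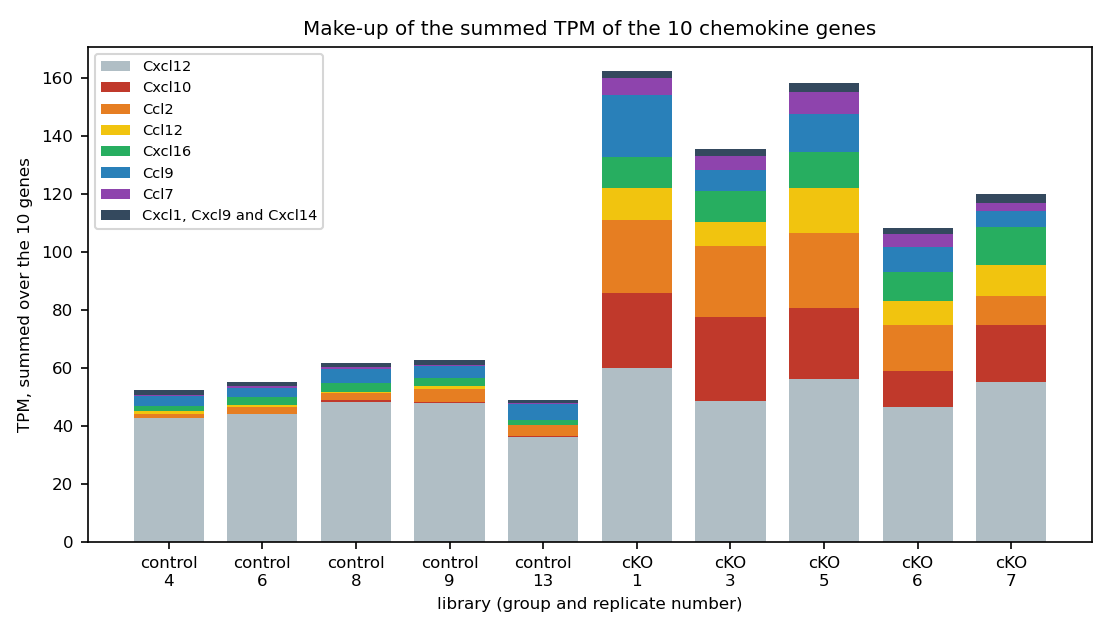
TPM summed over the 10 chemokine genes in each library (y axis), split by gene in colour, with control libraries on the left and cKO libraries on the right. Cxcl12 (grey) is of similar height in all bars, and the rest of the bar is 61.9 to 103 TPM in cKO and 9.91 to 14.8 TPM in control libraries.

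The receptors of these ligands were measured in the same hearts. They were tested with limma across 13282 genes, with Benjamini-Hochberg adjustment, after scaling, where 20.8% of genes were called higher and 20.8% lower. As deposited, 76.5% of genes were called higher and 3.46% lower. From here on, levels are TPM as deposited with the SD over 5 libraries, and log2 differences and adjusted p are scaled unless stated otherwise. Of 23 chemokine receptor genes, 9 passed the filter, of which 6 were called higher (among them Cx3cr1, Ccr1, Ccr2, Cxcr4 and Ackr4), 1 fell (Ccrl2) and 2 were not called (Ackr2 and Ackr3), and as deposited 7 were called higher and 1 lower. Ackr2 and Ackr4, scavenger receptors, were named after their values were seen. Ccr1 and Ccr2 were among 3 that passed through the cKO libraries alone, so the count and the tested genes' median of 0.82 are not support for the list as a whole. The other 14, Cxcr1 at 0 in every library among them, reached 2.15 TPM at most.

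Ccr2 and Ccr1 are given as levels with no test for that reason. Ccr2, the receptor of Ccl2, Ccl7 and Ccl12, was at 2.62, 3.36, 2.73, 1.10 and 2.27 TPM in cKO replicates 1, 3, 5, 6 and 7 and at 0.112 to 0.348 TPM in control libraries. The groups did not overlap. Ccr1, a receptor of Ccl9 and Ccl7, was at 4.70 ± 1.23 TPM in cKO and 0.546 ± 0.174 TPM in control hearts, again with no overlap. Cxcr4, the signalling receptor of Cxcl12, rose from 2.92 ± 0.618 to 9.53 ± 0.797 TPM (0.82, limma adjusted p = 0.000438), again without overlap. Ackr3, which takes up Cxcl12 without G protein signalling, was at 18.4 ± 3.92 TPM in cKO and 15.4 ± 4.89 TPM in control hearts and was not called (-0.41, limma adjusted p = 0.101). Without control replicate 13, at 7.57 TPM the lowest library, Ackr3 was called lower (-0.60, limma adjusted p = 0.00176). So the ligand Cxcl12 and its receptor Cxcr4 differed in opposite directions after scaling, and in the same direction as deposited.

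The receptors of the remaining ligands were too low to test. Cxcr3, the receptor of Cxcl9 and Cxcl10 on T and NK cells, was at 0.102, 0.214, 0.149, 0.286 and 0.239 TPM in cKO replicates 1, 3, 5, 6 and 7, at 0.0323 TPM in control replicate 4 and at 0 in the other 4 control libraries. Cxcr6 was at 2.15, 1.39, 0.931, 0.621 and 0.513 TPM in the cKO libraries in the same order and at 0 to 0.167 TPM in control libraries. Cxcr2, the neutrophil receptor of Cxcl1, was at 0.106 to 0.323 TPM in cKO and 0.0546 to 0.160 TPM in control libraries, with overlap. Cxcr3 and Cxcr6 were thus higher in all 5 cKO libraries than in any control library, at 2.15 TPM or less.

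Among receptors for other ligands was Cx3cr1, the fractalkine receptor of monocytes and resident macrophages. It was at 13.02 ± 2.82 TPM in cKO and 0.920 ± 0.269 TPM in control hearts, with no overlap. No test is given for Cx3cr1, since 5 cKO libraries but only 1 control library reached 1 TPM. Its ligand gene Cx3cl1 rose from 1.39 ± 0.492 to 5.39 ± 1.16 TPM (0.89, limma adjusted p = 0.00111). Ccrl2, a chemerin-binding receptor without known signalling, fell from 4.44 ± 0.762 to 2.52 ± 0.965 TPM, by 1.21 after scaling (limma adjusted p = 0.000205) and by 0.66 as deposited (limma adjusted p = 0.00338). As deposited its groups overlapped, with cKO replicate 6 at 3.93 TPM above control replicate 13 at 3.60 TPM.

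Of 28 chemokine genes outside the list of 10, 12 passed the filter, of which 6 were called higher and 6 were not called after scaling, and 8 were called higher as deposited. Ccl17 and Ppbp passed through the cKO libraries alone, so their calls and the count give no support. The 6 called higher were Pf4, Ccl5, Ccl17, Ccl6, Cx3cl1 and Ppbp, the last named because the count is small. Pf4, platelet factor 4, which cardiac resident macrophages also express, rose from 19.7 ± 2.10 to 74.1 ± 10.7 TPM (log2 difference 1.14, limma adjusted p = 6.02e-06) and was the most abundant chemokine gene of the cKO hearts. Ccl5 encodes a CCR1 and CCR3 ligand known from T cells and activated macrophages. It was at 7.30 ± 2.65 TPM in cKO and 0.674 ± 0.406 TPM in control hearts. No test is given for Ccl5, since 5 cKO libraries but only 1 control library reached 1 TPM. Ccl17, a CCR4 ligand, was at 2.85, 1.53, 5.02, 1.68 and 5.24 TPM in the cKO libraries and listed at 0 in all 5 control libraries. Ccl6 rose from 1.14 ± 0.324 to 5.20 ± 1.46 TPM (1.01, limma adjusted p = 0.000375). Not called were Ccl3, Ccl4, Cxcl2, Ccl21a, Ccl25 and Ccl27a, with log2 differences of -0.60 to -0.10. Ccl3, Ccl4 and Cxcl2 were at 6.63, 2.02 and 3.53 TPM on average in cKO and 6.05, 1.57 and 2.97 TPM in control hearts. The genes not called were named after their values were seen.

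Proteases that cut or shed chemokines were a short list of 6. In the scaled fit 2 of them rose and Dpp4 fell, Adam10 and Adam17 had no call, and Mmp9 was too low to test. As deposited 4 rose. Mmp14 rose from 32.9 ± 5.22 to 102 ± 12.1 TPM (log2 difference 0.88, limma adjusted p = 3.24e-06). Mmp2, which trims Ccl7 and Cxcl12, rose from 38.6 ± 8.95 to 101 ± 17.7 TPM (0.65, limma adjusted p = 0.00232). Dpp4, which clips Cxcl10 and Cxcl12, was at 0.917 ± 0.101 TPM in cKO and 1.25 ± 0.520 TPM in control hearts. It was called lower after scaling but not as deposited. No p-value is given for Dpp4, since 4 control libraries but only 1 cKO library reached 1 TPM, and its call gives no support. Control replicate 13 held 2.15 TPM of Dpp4, and the other control libraries 0.791 to 1.11 TPM. With Ddx3y as a covariate 1 protease was called, and Mmp2 (limma adjusted p = 0.0661) and Dpp4 were not. Adam10 and Adam17, the sheddases of Cxcl16, had scaled log2 differences of 0.11 and -0.03 with no call, and both rose as deposited.

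Of 19 genes of the NF-kB arm, from cytokines and their receptors to the transcription factors, 18 were tested, 10 were called higher and none lower in the scaled fit, and 16 were called higher as deposited. Il1b and Tlr2 passed the filter through the cKO libraries alone, so the count gives no support, and their levels are given with no test. Tlr2, a receptor for bacterial lipoproteins and cell debris, was at 8.72 ± 1.95 TPM in cKO and 0.721 ± 0.211 TPM in control hearts. The cytokine gene Il1b was at 2.36 ± 0.544 TPM in cKO and 0.233 ± 0.171 TPM in control hearts. The TNF receptor gene Tnfrsf1a rose from 17.1 ± 1.76 to 46.0 ± 5.52 TPM (log2 difference 0.66, limma adjusted p = 7.77e-06). Of the transcription factor genes, Nfkb2 rose by 1.23 (limma adjusted p = 1.07e-06) and Relb by 0.78 (limma adjusted p = 4.97e-05), which together form the noncanonical NF-kB dimer. The canonical subunit genes Nfkb1 and Rela had no call after scaling, at 0.08 and 0.05. As deposited both were called higher, at 0.79 (limma adjusted p = 2.3e-05) and 0.76 (limma adjusted p = 0.000126). Tnf was at 1.22 TPM in cKO and 0.983 TPM in control hearts on average. Nfkb1, Rela and Tnf were named after their values were seen.

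Of 22 genes of the interferon arm, 19 were tested. In the scaled fit 14 rose, 2 fell (Mavs and Ifngr2) and 3 had no call (Jak2, Irf3 and Sting1). As deposited 18 rose, Ifngr2 among them. Its log2 difference was -0.25 after scaling (limma adjusted p = 0.0282) and 0.47 as deposited (limma adjusted p = 0.00225). Irf8, a myeloid interferon regulatory factor, rose from 2.26 ± 0.536 to 12.3 ± 1.96 TPM (log2 difference 1.43, limma adjusted p = 3.01e-06). Irf7, the amplifier of type I interferon, rose by 1.28 (limma adjusted p = 3.08e-05), with 6.90 to 11.2 TPM in cKO and 1.25 to 1.92 TPM in control libraries. The RNA sensor gene Ifih1 rose by 0.82 (limma adjusted p = 6.73e-05), from 1.17 ± 0.251 to 4.44 ± 0.636 TPM. Mavs, the adaptor of the RNA sensors, was at 11.4 TPM in both groups and fell by 0.68 after scaling alone (limma adjusted p = 1.86e-05). The only interferon genes on the list, Ifnb1 and Ifng, were at or near 0 and were named after their values were seen. Ifnb1 was at 0 in every library and Ifng at 0.0329 TPM on average in cKO and 0 in control libraries. With Ddx3y as a covariate 7 genes of this arm were called higher and 1 lower, and within the 7 libraries with Ddx3y 9 and 1, an alternative chosen after seeing the data.

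**Figure D4:**
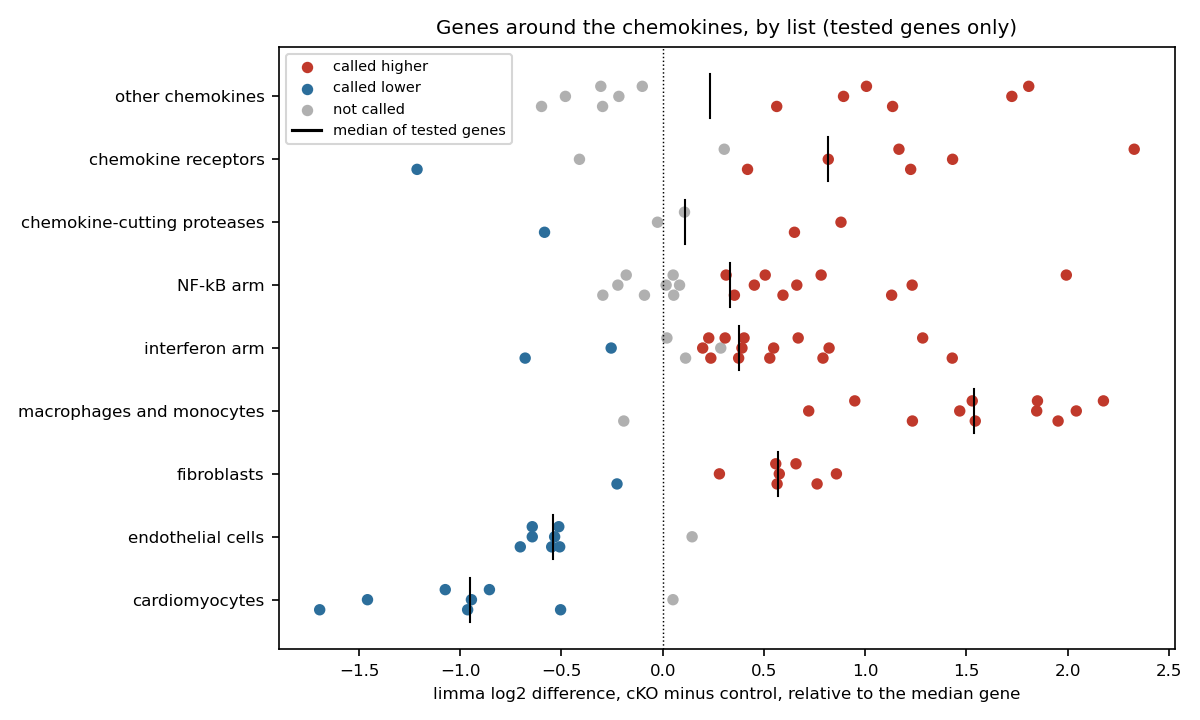
Limma log2 difference between cKO and control hearts after scaling (x axis) for each tested gene of the lists around the chemokines and of the marker lists (rows). Red points were called higher, blue lower and grey not called, and the black line is the median of the tested genes. Macrophage and monocyte markers centre on 1.54 and endothelial markers on -0.54.

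Markers of cell types in or around the heart muscle were read in the same fit. Of 8 cardiomyocyte markers 7 fell and Nkx2-5 was not called, and as deposited 3 fell and 1 rose. Of 12 macrophage and monocyte markers, 11 were called higher and Ly6c2 was not called. Of these, Fcgr1 passed the filter through the cKO libraries alone and Itgam with only 1 control library at 1 TPM. Their calls give no support. The 12 markers summed to 432 to 645 TPM in cKO and 75.8 to 103 TPM in control libraries. C1qa rose from 14.7 ± 2.27 to 98.5 ± 13.3 TPM (log2 difference 1.95, limma adjusted p = 7.34e-08) and C1qb by 2.04 (limma adjusted p = 9.47e-08). The 10 T and NK lymphocyte markers were below the filter, and summed to 2.75 to 4.72 TPM in cKO and 0.665 to 1.37 TPM in control libraries. Of the 6 neutrophil markers, 2 were tested and neither was called after scaling, while S100a8 was called higher as deposited (limma adjusted p = 0.0279). The 6 markers had sums of 11.9 to 48.3 TPM in cKO and 6.95 to 21.3 TPM in control libraries. Of the untested ones, Ly6g was at 0 in all control and 4 of 5 cKO libraries. Csf3r was at 0.570 to 1.48 TPM in cKO and 0.138 to 0.252 TPM in control libraries, with no overlap. Retnlg and Mmp8 overlapped between the groups. Of 8 fibroblast markers 7 rose, among them Pdgfra (0.76) and Tcf21 (0.86), and Dpt fell, although as deposited all 8 rose, with sums of 1923 to 2491 TPM in cKO and 759.9 to 1175 TPM in control libraries. Of 8 endothelial markers 7 fell after scaling, among them Pecam1 (-0.64) and Cdh5 (-0.64), and none fell as deposited, where both stood at 0.09. In bulk heart RNA, more cells of a type and more RNA per cell cannot be told apart, and the part of these cells in the chemokine levels was not tested.

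Tested genes were ranked by likeness to Cxcl10 over the 10 libraries, leaving out the other listed chemokines and predicted or clone-named gene models. The 5 closest genes are named here. The measure was the mean absolute difference between log2 values after scaling, each gene centred on its control mean. The genes were Uchl1 (0.20), Tubb3 (0.22), Lgals3 (0.27), Nqo1 (0.31) and Mllt11 (0.32). Tubb3 was also near Cxcl10 in level, with 20.7 ± 5.12 TPM in cKO and 0.590 ± 0.101 TPM in control hearts. Like Cxcl10, it passed the filter through the cKO libraries alone, so its place in the ranking gives no support. The lowest cKO library was replicate 6 for Cxcl10, Uchl1, Tubb3, Lgals3 and Mllt11, and replicate 3 for Nqo1. The highest was replicate 3 for Cxcl10, replicate 1 for Uchl1 and Lgals3, replicate 5 for Tubb3 and Mllt11 and replicate 7 for Nqo1. The genes were chosen by this measure, so nothing is read from the shared lowest library.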

How the data were processed

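RNA was sequenced from 10 mouse hearts, 5 cKO and 5 control, grouped by sample title. The authors deposited 1 table of TPM. The submitters' processing notes list, with no role or order, DESeq2 1.22.2, HTSeq 0.11.2, Picard 1.96, STAR 2.7.1, FastQC 0.11.7, Trimmomatic 0.32 and bcl2fastq, and name mm10 as the build. No source used here gives the annotation release or the strand setting. Depth cannot be read from TPM, so no counting interval was given. Coordinates are those of GENCODE M21 (GRCm38), matched by gene ID without its version; the table's versions are 1 higher for the 10 chemokines.

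Values were tested as log2(TPM + 1) after division by median-of-ratios size factors from 16393 genes. The 13282 genes that reached 1 TPM in 5 or more libraries entered limma (3.58.1, under R 4.3.3; variance trend, two-sided, Benjamini-Hochberg adjustment, called under 0.05), tested first on simulated data. Tables were handled with Python 3.11.15 and pandas 2.3.3.

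The members and lists were chosen with earlier results of these data known. The lists held 160 genes, all matched (2 by an alias). Named were the members, their receptors, up to 5 called genes per list and 2 per marker list by adjusted p, the 5 genes nearest to Cxcl10, and Chmp4b; the text says where others were added. Some listed genes are counted but not reported by name here. Alternatives varied the scaling, pseudocount, filter, variance trend, a Ddx3y covariate and the libraries used. The labels number the hearts and say no more of their origin (litter or day), so p-values measure the spread between these samples.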

Additional observations from a re-analysis of the deposited data

Results flagged for a closer look

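Among 92 sets of 5 libraries (46 genes in each group), 3 held 1 library far from the other 4, with a gap to its nearest neighbour of more than 0.71 of the set's range; chance alone flags about 1 set in 20. Cxcr3 was at 0.0323 TPM in control replicate 4 and at 0 in the other control libraries. Dpp4 was at 2.15 TPM in control replicate 13, where the other control libraries held 0.791 to 1.11 TPM. Irf7 was at 1.25 TPM in control replicate 8, where the others held 1.74 to 1.92 TPM. None of the 10 chemokine genes was flagged in either group.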

How the results depend on the processing

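No paired analysis was possible because the groups share only replicate number 6. After scaling 5529 of 13282 genes were called (2763 higher, 2766 lower), and as deposited 10620 (10160 higher, 460 lower). As deposited, 16 NF-kB genes were called in place of 10. On that scale Cxcl1 stood at 0.21, Cxcl12 at 0.28, Cdh5 at 0.0881, Pecam1 at 0.0870 and Mavs at 0.0023, each against a negative scaled value. Ifngr2 and Dpt were called lower after scaling and higher as deposited. With TPM rescaled without mitochondrially encoded genes, 5 proteases were called in place of 3. With Ddx3y as a covariate, 3416 genes were called over the table, 1 protease and 8 interferon genes in place of 3 and 16. In the 7 libraries with Ddx3y, an alternative chosen after seeing the data, the counts were 3477, 1 and 10, with fewer samples. The cause was not tested. Leaving out any 1 library, the filters, the pseudocount and the variance trend kept each list's count within 1.5 times. The 10 chemokines had 5 or 6 genes without overlap and higher in cKO in every setting run for them. TPM gives no depth, so how far low genes such as Cxcl9, Cxcl14 and Cxcr3 are limited by it is unknown.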
